A study of Mus musculus with 34 samples.

Results

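The 8 genes described here, all of meiotic recombination, were followed through mouse spermatogenesis in maps of open chromatin and of nucleosomes: Prdm9, Spo11, Hormad1, Dmc1, Meiob, Msh4, Msh5 and Mlh3. They were chosen by name for their roles in recombination and make up 8 of 21887 protein-coding genes in the gene table (chromosomes 1 to 19 and both sex chromosomes). An interval was assigned to a gene when it overlapped the annotated gene, or the 1 kb beyond either of its ends, by at least 1 bp. The maps come from ATAC-seq: a transposase, Tn5, inserts into accessible DNA, and the length of the released fragment separates open stretches from stretches wrapped around a nucleosome. Subnucleosome peaks mark open stretches, where fragments too short to span a nucleosome gather, and a peak itself can be wider than a nucleosome. Nucleosome calls, each 150 bp wide, mark wrapped stretches. Every group has 1 deposited list of either kind. In the WT and cKO subnucleosome lists all peak names of a list carry the same replicate number, so whether such a list stands for 1 library or for both is not known.

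The 34 libraries fall into 12 groups, 4 stages in 3 backgrounds. The stages were a meiotic fraction of testis cells (MS), round spermatids (RS), spermatids in elongation and condensation (ES) and sperm taken from the cauda epididymis (Sp). The backgrounds were SV129 mice, C57BL6 mice with intact Gcn5 (GCN5+/+, here WT), and C57BL6 mice whose floxed Gcn5 alleles, both of them, were deleted by Cre under the control of Stra8 (GCN5-/-, here cKO). Gcn5 is a histone acetyltransferase, and the study set out to follow nucleosomes through sperm formation with and without it. Stra8-Cre acts in germ cells around the entry into meiosis, so other testis cells keep the gene. SV129 had 6 libraries of sperm and 4 of each earlier stage, where 2 collections were each run in 2 technical repeats, while WT and cKO had 2 in every group. The protocol, worded alike for all samples, describes adult SV129 males of 8 to 12 weeks, with 11 animals pooled for each collection. For the C57BL6 animals, ages and pool sizes are not stated in the labels. The interval lists do not show whether the floxed exons were lost.

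Recombination starts when SPO11 cuts both DNA strands at sites that PRDM9, a DNA-binding histone methyltransferase, has marked. HORMAD1 sits on the chromosome axis and promotes the cuts, MEIOB protects the resected single strands, and DMC1 forms the filament that invades the homologous chromosome. MSH4 and MSH5 form a clamp that holds recombination intermediates, and MLH3 acts at the sites that become crossovers. These proteins act in meiotic prophase, before the round spermatid stage. An open promoter is not a measure of expression, and no RNA was analysed here.

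Each list is a single one, so no comparison below has a replicate error or a test between conditions. SV129 is set beside WT as a yardstick, since Gcn5 is intact in either, and their difference joins strain, library number and unknown depth. List length differed widely. Subnucleosome lists held 33060, 35822 and 16087 peaks at MS in SV129, WT and cKO, and 29243, 56480 and 4075 at RS. As a check of the labels, 14, 14 and 13 of 14 markers of meiotic cells had a subnucleosome peak at MS in SV129, WT and cKO. Of all protein-coding genes 60.5%, 63.4% and 44.9% had one. For Sertoli and Leydig cells it was 3, 2 and 0 of 12 markers, and for blood cells 0, 1 and 0 of 10. For epididymis it was 3, 3 and 3 of 10. Of 16 spermatid markers, 15 in SV129, 15 in WT and 3 in cKO had a peak at RS, beside 55.8%, 64.1% and 14.9% of all genes. At MS 9, 10 and 8 of them already had one. At RS 14, 14 and 3 of the 14 meiotic markers had one, so in the intact lists these markers did not separate MS from RS. Of 10 spermatogonial markers 5, 7 and 3 had a peak at MS. Fewer cells of a type and less open chromatin per cell cannot be told apart in such bulk samples.

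The promoters of 3 genes are shown because peaks described below lie on them, from RefSeq (build GRCm38.p6), read 5′ to 3′ on the strand of the gene. Promoters of 6 of the 8 genes were in the table used, each as the 250 bases before a tabled start, and Spo11 and Meiob were not matched. Some tabled starts lie inside the annotated gene, and only bases outside the gene are shown, because exons were not in the table used and an overlap with another transcript was not checked. These are 250 bases of Hormad1, chr3:95559427-95559676 (plus strand), 230 bases of Prdm9 at its outer start, chr17:15564375-15564604 (minus strand), and 200 bases of Dmc1, chr15:79605160-79605359 (minus strand). The stretch of Msh5 lies wholly inside the gene and is not shown. The promoter of Hormad1 still held a peak at RS in cKO, and those of Prdm9 and Dmc1 did not. Capitals mark matches, on either strand, to the letters searched: E2F (GCGGGAA), the STRA8 core (CCTCAG), MYB (CAACNG or TAACNG), NRF1 (GCATGCG) and SP/KLF (GGGCGG).
Hormad1: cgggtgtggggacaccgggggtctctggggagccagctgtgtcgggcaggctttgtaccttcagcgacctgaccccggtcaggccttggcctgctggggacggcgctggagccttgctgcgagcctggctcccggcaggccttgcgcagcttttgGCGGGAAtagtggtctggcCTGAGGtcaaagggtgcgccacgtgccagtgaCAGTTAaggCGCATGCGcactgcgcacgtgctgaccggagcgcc
Prdm9: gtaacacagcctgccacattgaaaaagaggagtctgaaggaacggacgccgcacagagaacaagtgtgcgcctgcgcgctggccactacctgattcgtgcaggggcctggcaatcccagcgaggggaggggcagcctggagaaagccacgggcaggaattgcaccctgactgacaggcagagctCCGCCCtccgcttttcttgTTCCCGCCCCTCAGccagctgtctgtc
Dmc1: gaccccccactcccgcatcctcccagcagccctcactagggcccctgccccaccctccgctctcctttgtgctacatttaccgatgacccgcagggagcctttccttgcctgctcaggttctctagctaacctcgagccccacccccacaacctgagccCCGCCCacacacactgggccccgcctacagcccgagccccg

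In the meiotic fraction all 8 genes had a subnucleosome peak in every background, and none of them had one in elongating spermatids. Of all protein-coding genes, 60.5% had a peak at MS in SV129, 63.4% had one in WT and 44.9% had one in cKO. The recombination genes are longer than most, with a median of 31837 bp against 17169 bp, and a longer gene has more room for an interval. At ES 0 of 8 had a peak in any background, where 0.964%, 0.507% and 0.535% of all genes did. Peaks were thus listed at all of these genes at MS and at none at ES, the stage at which nearly all genes lacked one.

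In round spermatids the backgrounds parted. SV129 had a peak at 7 of 8 genes, all but Mlh3, and WT at 8 of 8, beside 55.8% and 64.1% of all genes. cKO had a peak at 2 of 8, Hormad1 and Msh5, beside 14.9% of all genes. In sperm SV129 had peaks at Hormad1, Prdm9 and Msh5 (3 of 8), WT at Hormad1 (1 of 8) and cKO at Prdm9 (1 of 8), beside 31.6%, 11.6% and 4.15% of all genes. The 8 genes followed the genome-wide course from stage to stage, with higher shares at MS and in the intact RS lists.

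**Figure D1:**
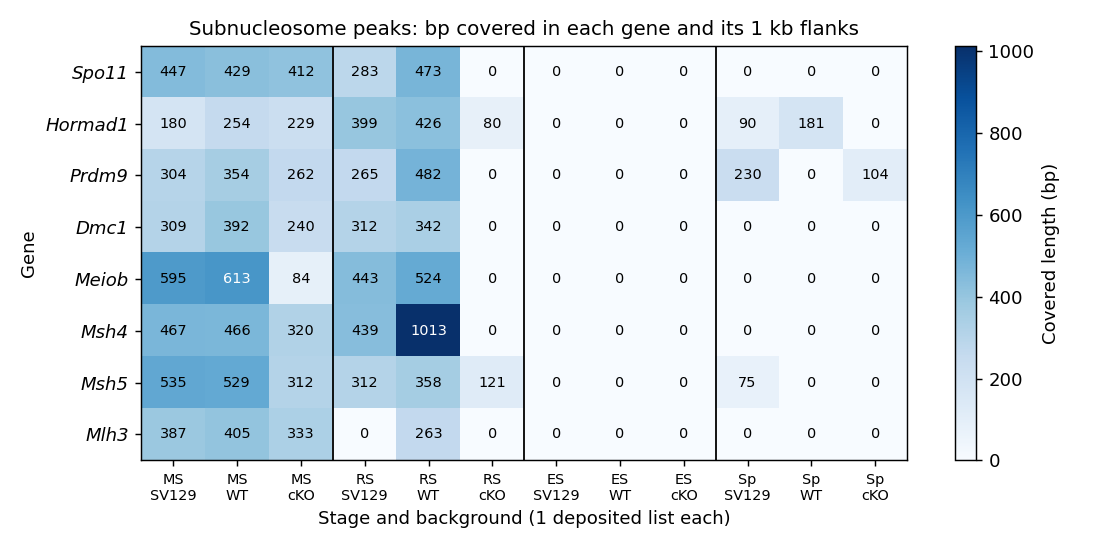
Base pairs covered by subnucleosome peaks in each gene and the 1 kb beyond its ends (number and shade), by gene (rows) and by stage and background (columns, 1 deposited list each). All cells at MS hold a peak, the ES columns are empty, and at RS the cKO column holds only Hormad1 (80 bp) and Msh5 (121 bp).

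Most of these peaks were at gene ends. Within 1 kb of an end, 7 of 8 genes had one at MS in SV129, WT and cKO, beside 48.6%, 51.2% and 35.8% of all genes. At RS the numbers were 6, 7 and 2 of 8, beside 43.1%, 50.3% and 12.0%. Spo11 was the exception, with its peak inside the gene. Below, the lower and upper end of a gene are those with the smaller and larger coordinate, and a score is the authors' own for each peak on an unstated scale, given as the percentage of peaks of the same list that scored lower. SV129 peaks carry no score.

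Prdm9 (chromosome 17, 15543072 to 15564374, minus strand) had the best-scored peak of the 8 at MS in both WT and cKO. The widths were 304 bp (SV129), 354 bp (WT) and 262 bp (cKO), and 98.9% of WT peaks and 97.5% of cKO peaks scored lower. The 3 peaks lay across the outer of its 2 tabled starts, at 15564354, with centres 78, 66 and 44 bp upstream of it. At the inner start, 15563331, the 250 bases before the start held no peak in any of the 12 lists. The peak remained at RS in SV129 (265 bp) and WT (482 bp) and was absent in cKO. In sperm it was listed in SV129 (230 bp) and cKO (104 bp) and not in WT, so a place without a peak at RS in cKO had one again in the cKO sperm list. That sperm peak, with 29.5% of its list scoring lower, was the only subnucleosome interval of the 8 genes in cKO sperm.

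Nucleosome calls at Prdm9 stood in 3 positions around the outer start at MS. SV129 had 9 calls, WT 11 and cKO 10, all within 1 kb of the upper end. In SV129 they formed stretches from 217 to 48 bp inside that end, from 37 bp inside to 172 bp outside, and from 183 to 372 bp outside, the middle one in the peak itself. WT and cKO had calls at the same 3 positions, with neighbouring stretches joined. At RS SV129 had 11 calls and WT 8, and cKO had 1. At ES none was at the promoter in SV129 or WT, while 3 of the 9 cKO calls lay within 302 bp of the upper end. In cKO sperm 4 of 8 calls took the outer positions again, in stretches from 225 to 48 bp inside the end and from 178 to 362 bp outside it, on either side of the sperm peak. These 4 were the only ones of 42 cKO sperm calls at the 8 genes that overlapped a WT call of the meiotic fraction (9.52%, against 8% of the whole cKO sperm list).

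Spo11 (chromosome 2, 172977379 to 172993576, strand not tabled), which encodes the catalytic subunit of the cutting enzyme, had its peak in the gene body. At MS the peak was 447 bp wide (SV129), 429 bp (WT) or 412 bp (cKO), and in WT it ran from 2386 to 2814 bp inside the lower end. The cKO peak was 0.96 times as wide as the WT peak, the ratio nearest to 1 among the 8 genes. At RS WT had 1 peak of 473 bp there, SV129 had 2 peaks of 114 and 169 bp over its outer parts, and cKO had none. Nucleosome calls were listed at this place in all 6 MS and RS lists, at 5, 5 and 6 calls at MS and 3, 8 and 3 at RS in SV129, WT and cKO. In SV129 at RS the 3 call centres lay between the 2 small peaks. The place kept 2 calls in SV129 and 3 in WT at ES and had none in cKO. The annotated lower end itself, which overlaps the long noncoding RNA gene Gm52538, had no subnucleosome peak within 1 kb in any list. In cKO at MS a further 8 calls lay 151 to 675 bp beyond the upper end, where SV129 and WT had none at that stage.

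Hormad1 (chromosome 3, 95559677 to 95587863, plus strand) had a narrow peak just before its start with nucleosome calls on either side. The MS peak measured 180 bp in SV129, 254 bp in WT and 151 bp in cKO, with centres 78, 104 and 84 bp upstream of a tabled start. Of the nucleosome calls within 500 bp of the peak centre, 4 in SV129, 5 in WT and 5 in cKO, 0 had a centre inside the peak. One flank of calls ended 161 bp upstream of the start in SV129 and WT and 146 bp upstream in cKO, and the other began 35, 42 and 5 bp downstream. At RS the promoter peak measured 215 bp in SV129, 234 bp in WT and 80 bp in cKO. In WT at RS 93.4% of peaks scored lower, in cKO 33.3%. The cKO list had no nucleosome call at Hormad1 at RS, against 4 in each intact list, so the open stretch was listed without calls beside it. Not all intact RS calls were flanks: 2 of the 4 in WT had centres inside the peak, and 1 of the 4 in SV129 lay in the body.

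A further peak near the upper end of Hormad1 lay 809 to 1207 bp beyond Hormad1 in WT at RS, across an annotated end of Gm40097 and one of Golph3l. Whether either of these is a gene start was not looked up, so the peak may be the promoter of a neighbour. This further peak was listed at RS in SV129 and WT, at MS in cKO, and in sperm in SV129 and WT. The single Hormad1 peaks of SV129 and WT sperm were this one, and the promoter of Hormad1 had no peak in any sperm list. It stood at the edge of the 1 kb window, and the 2 intact sperm counts for Hormad1 depend on that window.

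Dmc1 (chromosome 15, 79561497 to 79605159, minus strand) had 1 peak at its start at MS and RS. It measured 309, 392 and 240 bp at MS in SV129, WT and cKO, 312 and 342 bp at RS in SV129 and WT, and was not listed at RS in cKO. The centres at MS were 53, 44 and 30 bp upstream of the start at 79605109, so the place moved little as the width changed. In WT at MS 90.9% of peaks scored lower, in cKO 71.9%. Nucleosome calls at Dmc1 at MS numbered 5 in SV129 and 11 in WT, and cKO had 0, although all 3 lists had the peak. SV129 and WT shared calls at the start, and also a body site, 16235 to 16439 bp from the lower end in WT, where SV129 had 1 call and WT 3.

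Meiob (chromosome 17, 24804301 to 24839788, strand not tabled) had the widest MS peak of the 8 in both intact lists and the narrowest in cKO. The peak at its lower end measured 595 bp in SV129, 613 bp in WT and 84 bp in cKO, a cKO to WT ratio of 0.137. The cKO peak lay inside the WT peak, with its centre 13.5 bp away. Nucleosome calls in cKO were listed on its flanks. There were 13 at MS, 11 of them within 500 bp of the peak centre and 0 inside the peak, against 8 calls in SV129 and 5 in WT, of which 5 and 4 lay inside. A peak of 84 bp has less room for a call centre than one of 595 or 613 bp. At RS the peak measured 443 bp in SV129 and 524 bp in WT and was not listed in cKO, where 3 calls covered 126 to 337 bp inside the end. At the upper end, where Hagh overlaps the gene, no list had a subnucleosome peak.

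Msh4 (chromosome 3, 153857141 to 153906138, minus strand) had its peak at the annotated upper end and not at the tabled start, 153904891, which lies inside the gene. The MS peak measured 467 bp in SV129, 466 bp in WT and 320 bp in cKO, with centres 1025, 986 and 1002 bp upstream of that start. The 250 bases before the tabled start held no peak in any list. At RS the upper-end peak was 174 bp wide in SV129 and 532 bp in WT, and cKO had none. Both intact RS lists also had a body peak, 7851 to 8153 bp from the lower end in WT, 265 bp wide in SV129 and 303 bp in WT, where no MS list had one. In WT 94.9% of RS peaks scored below it. WT alone had another body peak at RS, at 153884422 to 153884599. Nucleosome calls were present at the site of the shared body peak before and after, with 1 call in SV129 and 2 in WT at MS and 1 in SV129 at ES.

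Msh4 also carried the most nucleosome calls of the 8 genes at MS in the intact lists, 17 in SV129 and 30 in WT, against 8 in cKO. The SV129 and WT calls at the upper end made 1 long stretch of 12 calls each, 550 and 560 bp. The difference between SV129 and WT came from the body, with 3 and 15 calls away from the upper end.

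Msh5 (chromosome 17, 35028605 to 35046997, minus strand) kept its peak the longest of the crossover genes. The MS peak measured 535 bp in SV129, 529 bp in WT and 312 bp in cKO. At RS it measured 312, 358 and 121 bp, and in sperm SV129 listed 75 bp of it. All 7 peaks overlapped one another and had their centres upstream of the tabled start, 35046622. Calls on this stretch were nearly the same in SV129 and WT at MS, both with 7 calls from 270 bp inside to 29 bp outside the upper end. cKO had none there at MS or RS. At ES WT and cKO each listed 3 calls at one identical body stretch, 35031092 to 35031296, and these were the only cKO calls at ES, 3 of 47, that overlapped a WT call. The lower end of Msh5 faces Sapcd1 across 48 bp and had no subnucleosome peak in any list.

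Mlh3 (chromosome 12, 85234466 to 85270647, minus strand) was the one gene whose peak was missing at RS in an intact list. At MS its peak measured 387 bp in SV129, 405 bp in WT and 333 bp in cKO, across the starts at 85270591 and 85270599. At RS WT had 2 short peaks of 87 and 176 bp in the same region, with only 40.5% and 45.1% of peaks scoring lower, and SV129 and cKO had none. Nucleosome calls filled part of the region at RS in SV129, WT and cKO, with 3, 2 and 3 calls near the start. Mlh3 was also the one gene with a nucleosome call in WT sperm, from 228 to 79 bp inside its upper end.

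**Figure D2:**
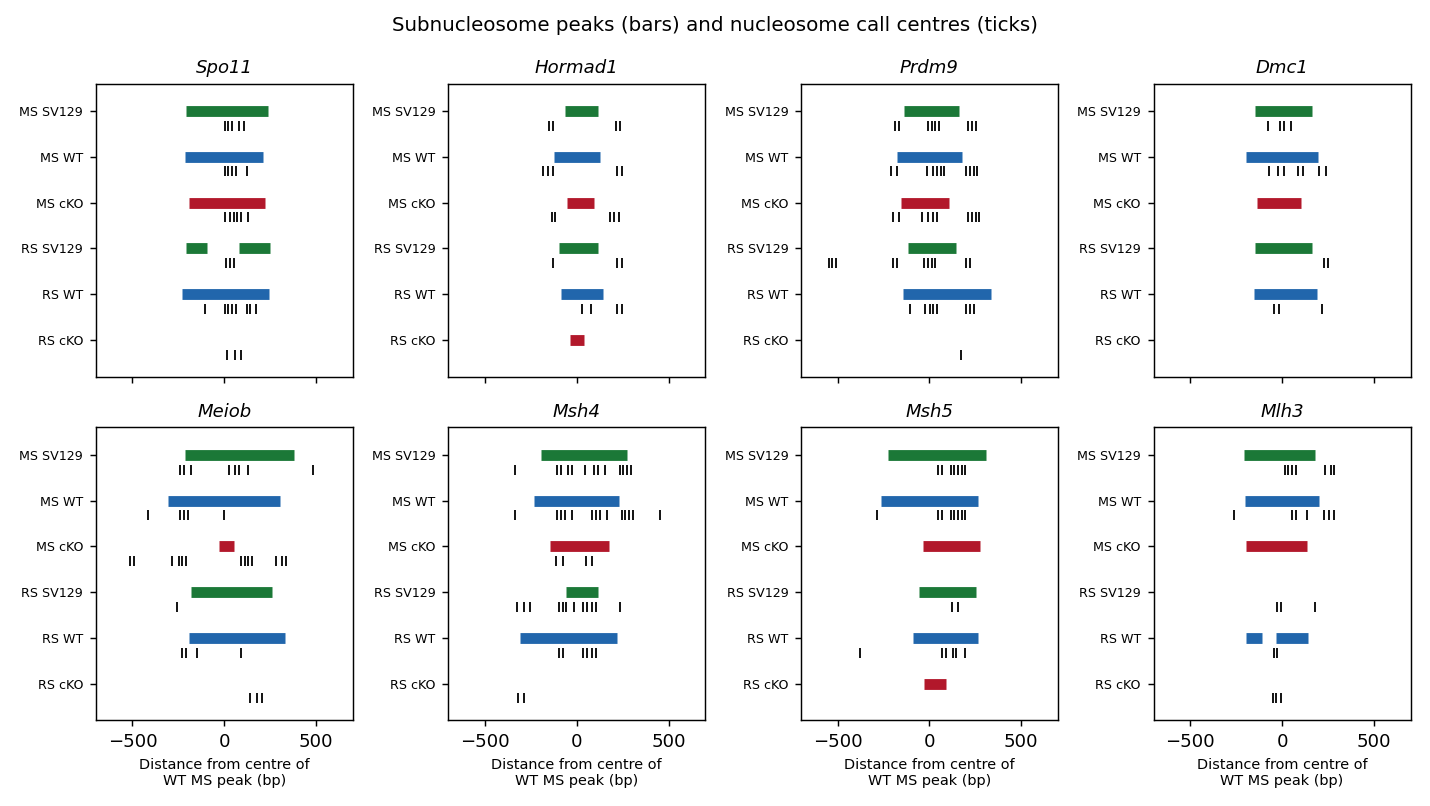
Subnucleosome peaks (bars) and centres of nucleosome calls (ticks) within 700 bp of the centre of the WT MS peak of each gene, for the 6 MS and RS lists; the horizontal axis is the distance in bp, in the direction of increasing coordinate. At Hormad1 the calls of the MS lists flank the bar, at Dmc1, Msh5 and Mlh3 the cKO row at MS has a bar and no ticks, and only Hormad1 and Msh5 have a cKO bar at RS.

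The comparison of cKO with WT asked whether loss of Gcn5 went with a change in open chromatin at these genes. At MS no gene lost its peak, 0 of 8, where 29.6% of all genes with a WT peak had none in cKO, and 0 of 8 lost it in SV129, where 8.53% of all genes did. In WT the MS peaks of the 8 genes were among the better scored, with 71.2% to 98.9% of peaks lower (median 90%). Every one of the 8 genes had fewer bases under peaks in cKO than in WT, from 0.96 times at Spo11 to 0.137 times at Meiob, as did 98.3% of all genes with peaks in both. Between SV129 and WT it was 5 of 8, beside 81.4%. Gene by gene, the median of covered bases over WT was 0.713 in cKO and 0.963 in SV129 at the 8 genes, beside 0.487 over 9769 genes and 0.788 over 12691 genes. Peak by peak, the median width over WT was 0.649 in cKO and 0.963 in SV129 at the 8 genes, beside 0.63 over 15522 overlapping peaks and 0.829 over 26461. The centres moved by 122.5 bp at Msh5 and by 32 bp or less at the other 7. The cKO list at MS was also the shorter, and the part of depth in its narrower peaks was not tested. With only the better-scored 50% of peaks in a list, WT kept a peak at 8 of 8 genes and cKO at 6 of 8, without Spo11 (45.9% of cKO peaks scored lower) and Hormad1 (38.6%).

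At RS 6 of 8 genes with a WT peak had none in cKO, beside 76.7% of all genes, and 1 of 8, Mlh3, had none in SV129, beside 15.2%. The share at the 8 genes was near the background. With only the better-scored 50% of peaks in a list, neither Hormad1 nor Msh5 had a cKO peak. Relative to list length the order turned, with 4.91 peaks at the 8 genes per 10000 peaks in cKO against 2.12 in WT. These values rest on 2 peaks in cKO and 12 in WT. The order turned over all genes too, with 3269 genes holding a peak from 4075 cKO peaks and 14031 from 56480 WT peaks. Within cKO, 6 of 8 genes with a peak at MS had none at RS, beside 68.7% of genes, while in SV129 it was 1 of 8 beside 16.5% and in WT 0 of 8 beside 9.81%. Both remaining cKO peaks were about 0.34 times as wide as the WT peaks, 0.342 at Hormad1 and 0.338 at Msh5, against a median of 0.37 over 4065 peaks. Both kept peaks were among the 8 WT peaks above percentile 75. Of the 4 WT peaks in the top 10% of scores, at Prdm9, Hormad1, Dmc1 and the Msh4 body site, 1 was overlapped by a cKO peak, beside 43.5% of all such peaks. Of the 4 between percentiles 75 and 90, at Spo11, Meiob, Msh4 and Msh5, 1 was, beside 13.6%. The remaining 4 WT peaks, below percentile 75, had no cKO counterpart. Of all WT peaks, 2.25% between percentiles 50 and 75 and 0.208% of the lower ones had one.

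From MS to sperm, 3 of 8 genes had a peak at both stages in SV129, 1 of 8 in WT and 1 of 8 in cKO, beside 47.7%, 17.4% and 8.98% of all genes with an MS peak. At Hormad1 this counts 2 different places in SV129 and WT, since the sperm peak was the one near the upper end.

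**Figure D3:**
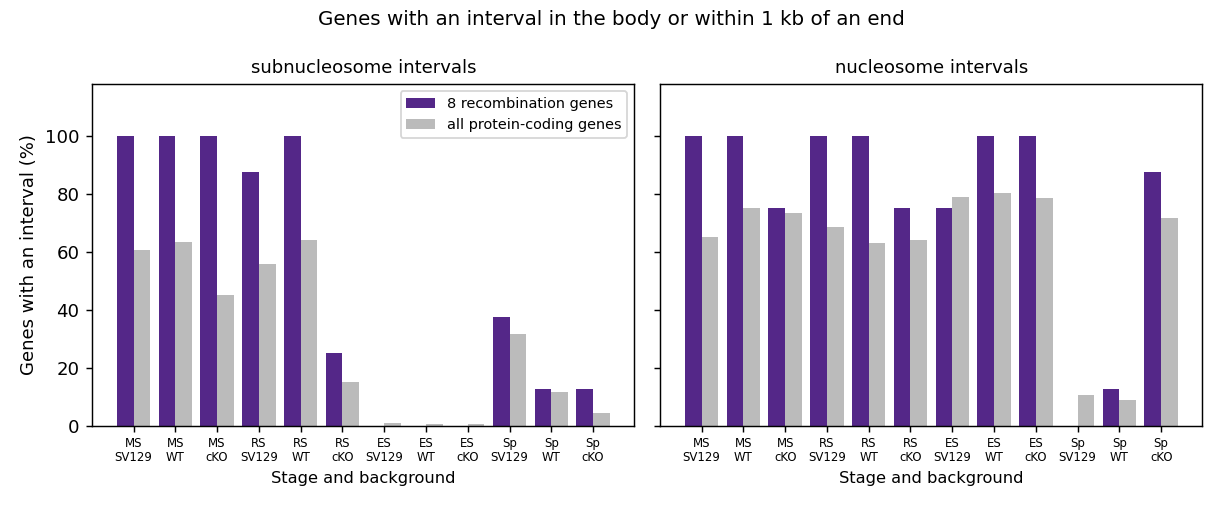
Percentage of the 8 recombination genes (dark bars) and of all protein-coding genes (grey bars) with a subnucleosome peak (left) or nucleosome call (right) in the gene or within 1 kb of an end, by stage and background. The dark bars stand at 100% at MS for peaks, and in the cKO list at RS at 2 of 8 beside 14.9%.

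Nucleosome calls at the 8 genes were mostly at gene ends at MS and RS and in gene bodies at ES. At MS they were present at 8 of 8 genes in SV129 and WT and at 6 of 8 in cKO, beside 65.1%, 75.1% and 73.2% of all genes. Within 1 kb of an end it was 7, 7 and 6 of 8, beside 53.8%, 62.9% and 57.5%. The calls numbered 62, 88 and 57 in SV129, WT and cKO, and 53, 58 and 45 of them overlapped the 1 kb either side of an end. Per 100000 calls of the list this was 31.1, 26.7 and 18, which places SV129 above WT. The 2 genes without a call in cKO were Dmc1 and Msh5, 2 of 8 that had one in WT, beside 10.2% of all genes. For SV129 it was 0 of 8, beside 15.6%.

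At RS 8 of 8 genes in SV129 and WT and 6 of 8 in cKO had a call, beside 68.4%, 63.1% and 63.9% of all genes. At ends it was 7, 7 and 5 of 8, beside 54.2%, 50.2% and 37.9%. Hormad1 and Msh5, the 2 genes that still had a subnucleosome peak in cKO, were the 2 that had no nucleosome call there, 2 of 8 beside 19.1% of all genes, against 0 of 8 beside 8.47% for SV129. The total was 43 calls in SV129, 49 in WT and 22 in cKO. All 8 genes had both classes in WT at RS and exactly 1 of them in cKO, beside 63.8% of all genes with both in WT. This count depended on the cut. Without calls at the most common score, which 66.7% of the cKO RS calls carried, 4 of 8 genes had a call in cKO. With only the better-scored 50% of peaks, 0 of 8 had a peak in cKO.

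At ES most calls lay in gene bodies. All 8 genes in WT and cKO and 6 of 8 in SV129, without Hormad1 and Prdm9, had a call, beside 80.3%, 78.5% and 78.9% of all genes. Their number, 52 in SV129, 51 in WT and 47 in cKO, was close to that at MS in SV129 and cKO. Per 100000 calls of the longer ES lists it was 10.8, 8.63 and 8.69, against 31.1, 26.7 and 18 at MS. Only 9, 10 and 3 of the ES calls overlapped the 1 kb around an end. Of the 8 genes 4 in SV129, 3 in WT and 1 in cKO had such an end call, beside 53.4%, 50.5% and 51.1% of all genes. Calls at these genes that overlapped a call of the WT list made up 61 of 62 in SV129 and 37 of 57 in cKO at MS (98.4% and 64.9%, against 69.2% and 33.9% of the whole lists). At RS it was 31 of 43 and 10 of 22 (72.1% and 45.5%, against 40.6% and 13.4%). At ES it was 4 of 52 and 3 of 47 (7.69% and 6.38%, against 8.53% and 7.49%). Thus the backgrounds shared positions at MS, and at ES 2 intact lists with similar totals at these genes had almost no positions in common.

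**Figure D4:**
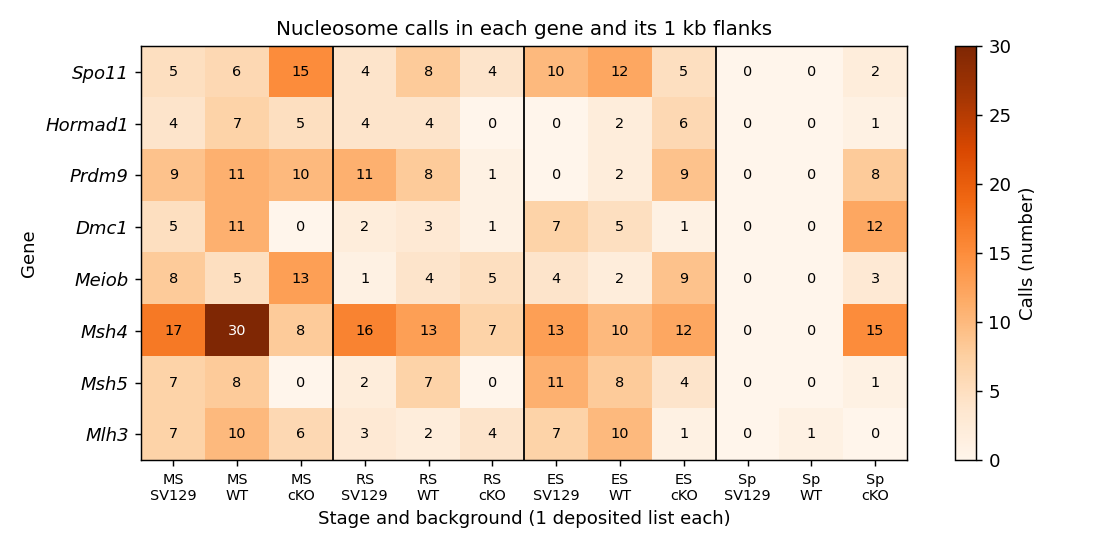
Number of nucleosome calls in each gene and the 1 kb beyond its ends, by gene (rows) and by stage and background (columns, 1 deposited list each). Msh4 in WT at MS has the highest cell, 30 calls, and Dmc1 and Msh5 are at 0 in cKO at MS. The cKO sperm column is filled at 7 genes where SV129 and WT sperm hold no call. The 1 WT sperm call is at Mlh3, where cKO has none.

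In sperm the cKO list stood apart. SV129 had 0 calls at the 8 genes, WT had 1, at Mlh3, and cKO had 42 at 7 genes, beside 10.4%, 8.79% and 71.7% of all genes with a call. All 7 genes without a WT call had one in cKO, as did 69.5% of all such genes. The cKO sperm list held 347951 calls, against 13615 in SV129 and 8628 in WT, and per 100000 calls of the list the 8 genes had 12.1 in cKO and 11.6 in WT. Of the 42 calls 35 lay in gene bodies, 15 at Msh4 and 12 at Dmc1. None could overlap an intact sperm call, because SV129 and WT had no call at the 7 genes with a cKO call. Of the whole cKO sperm list, 1.61% overlapped a WT sperm call and 2.31% an SV129 sperm call. In the cKO sperm list 9 of 12 markers of Sertoli and Leydig cells, 7 of 10 of blood cells and 5 of 10 of epididymis had nucleosome calls. In WT it was 0, 1 and 0. The cKO shares stand beside the 71.7% of all genes. Of germ-cell markers 10 of 14 meiotic, 8 of 10 spermatogonial and 4 of 16 spermatid ones had a call in cKO sperm. In the subnucleosome list of cKO sperm these 3 marker lists of other cells were at 0, as were those of germ cells, beside 4.15% of all genes. The part of other cells or of depth in the longer list was not tested.

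**Figure D5:**
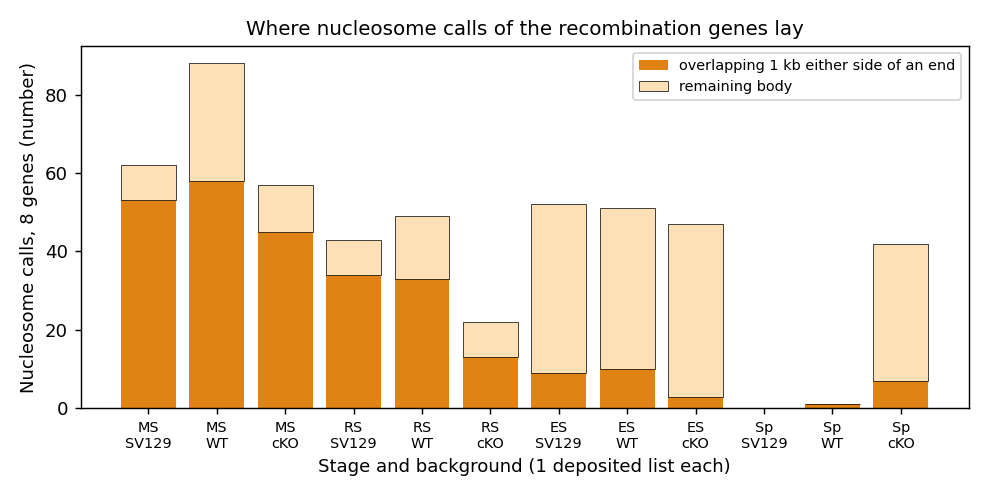
Number of nucleosome calls over the 8 genes in each list, divided into calls that overlap the 1 kb on either side of a gene end (dark) and calls in the remaining body (light), by stage and background. At MS most calls are at ends, 53 of 62 in SV129, and at ES most are in bodies, 43 of 52 in SV129.

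Many nucleosome calls at MS had their centres inside the subnucleosome peak of the same gene, although the 2 classes come from fragments of different length. Within 500 bp of the peak centres of these genes it was 39 of 57 calls in SV129 (68.4%), 37 of 62 in WT (59.7%) and 14 of 37 in cKO (37.8%), against 32.3%, 33.5% and 19.8% around all peaks. At RS it was 13 of 36 in SV129 (36.1%) and 39 of 49 in WT (79.6%), against 36.5% and 44%. A wider peak takes in more of this window by its width alone. At MS the median covered length per gene was 417, 417 and 287 bp in SV129, WT and cKO. The median peak widths of the whole lists were 148, 178 and 149 bp. The part of peak width in these shares was not tested. In SV129 and WT at MS the calls inside the peak were 5 of 5 and 5 of 5 at Spo11, 7 of 7 and 7 of 8 at Msh5, and 4 of 4 and 5 of 7 at Dmc1. They were 4 of 9 and 5 of 11 at Prdm9 and 0 of 4 and 0 of 5 at Hormad1. The lists do not separate cells, so whether peak and calls came from the same cells was not tested.

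Of other genes with roles in recombination 57 were listed, 15 of break formation, 22 of strand invasion and 20 of crossover formation, and all were found in the gene table. At MS 56 of 57 had a subnucleosome peak in SV129, 57 in WT and 48 in cKO, beside 60.5%, 63.4% and 44.9% of all genes. At RS it was 56, 57 and 17, beside 55.8%, 64.1% and 14.9%. At ES it was 0 in each list, and in sperm 29, 14 and 6, beside 31.6%, 11.6% and 4.15%. At RS in cKO 3 of 15 genes of break formation, 8 of 22 of strand invasion and 6 of 20 of crossover formation had a peak. Of genes with a WT peak, 9 of 57 had none in cKO at MS (29.6% of all genes) and 40 of 57 at RS (76.7% of all genes), and 1 of 57 at each stage had none in SV129 (8.53% and 15.2%). Nucleosome calls were present at 57, 57 and 55 genes at MS, beside 65.1%, 75.1% and 73.2% of all genes, and at 52, 53 and 43 at RS, beside 68.4%, 63.1% and 63.9%. At ES it was 53, 52 and 53 genes, beside 78.9%, 80.3% and 78.5%, and in sperm 8, 4 and 48, beside 10.4%, 8.79% and 71.7%. An end call at ES was present at 32 of 57 genes in SV129, 21 in WT and 28 in cKO, beside 53.4%, 50.5% and 51.1% of all genes.

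Of the 53 listed genes with an end peak at MS in both intact lists, 8 had none in cKO, beside 24.3% of all genes. Among them Hsf2bp, which helps load the strand exchange proteins, had 137 bp under peaks in SV129, 180 bp in WT and 0 in cKO, and Tex11, an X-linked crossover factor, had 253, 280 and 0 bp. Zswim7 (443, 652 and 0 bp), BC055324, now called Firrm (273, 549 and 0 bp), Eme1, the partner of the MUS81 nuclease (140, 197 and 0 bp), and Ccnb1ip1, a ubiquitin ligase of the crossover pathway (96, 122 and 0 bp), followed. Rec114, a partner of SPO11 in break formation, kept 87 bp in its body in cKO against 230 and 831 bp.

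At RS 50 had an end peak in both intact lists, of which 34 had none in cKO, beside 71.6% of all genes, and 16 had one in all 3. The 10 of the first kind with the most WT sequence under peaks were Mcm9 (1896 bp), Mei4 (1020 bp), Ankrd31 (837 bp), Pms2 (824 bp), Gen1 (794 bp), Hfm1 (767 bp), Mnd1 (726 bp), Atm (712 bp), Trip13 (694 bp) and Rad51ap2 (692 bp). Among those that kept one was Mcm8, with 413, 400 and 290 bp in SV129, WT and cKO. MCM8 and MCM9 work as a pair in repair, and at RS in cKO Mcm8 kept a peak while Mcm9 had none. Rbbp8, Shoc1, Rnf212b and Spata22 had no peak at an end in any of the 6 MS and RS lists, but each had peaks in its body. At MS these covered 446, 614 and 303 bp at Rbbp8 and 139, 358 and 0 bp at Shoc1 in SV129, WT and cKO. They covered 620, 533 and 367 bp at Rnf212b and 0, 239 and 0 bp at Spata22. Rbbp8 also had an end peak in SV129 and WT sperm.

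The promoters of the 6 genes with a tabled start differed in sequence. In the 250 bases before the start, Msh5 had 22 CpG dinucleotides and Hormad1 19, Mlh3 16 or 15 at its 2 starts, the outer Prdm9 start 13, Dmc1 12, the inner Prdm9 start 9 and the Msh4 start 4. The median was 10 over all 21263 promoters, 18 over those with a WT peak at MS and 4 over those without. The 2 promoters with a peak at RS in cKO, Msh5 and Hormad1, had the most CpG of the 6 genes, and over all promoters the medians were 19 with such a peak (2181 promoters) and 17 for those with a peak in WT only (7189). The 2 starts without a peak, inner Prdm9 and Msh4, had the fewest. Divided by the number that the C and G content gives, the order changed: CpG was 1.04 and 1.02 at the 2 Mlh3 starts, which had no peak at RS in cKO, 0.822 at Msh5, 0.671 at Hormad1, 0.563 at the outer Prdm9 start, 0.498 at Dmc1, 0.411 at the inner Prdm9 start and 0.347 at Msh4.

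The E2F letters were found at 3 of 6 genes, Hormad1, Msh5 and Prdm9, and in 4.96% of all promoters. In Prdm9 they lie on the minus strand of the gene, 47 to 41 bases before the outer start, overlapping an SP/KLF match and next to the STRA8 core. The STRA8 core was found at the same 3 genes and in 22.4% of promoters, the MYB letters at 4 (Hormad1, Msh4, Msh5, Prdm9) and in 41%, and the NRF1 letters at 2 (Hormad1, Mlh3) and in 3.73%. SP/KLF letters were found at Dmc1, Msh5 and Prdm9 (42.6% of promoters) and the NFY letters CCAAT at Mlh3, Msh5 and Prdm9 (35.4%). The letters TGACGT of CREB-type factors and GTTGCC of RFX factors and the TATA letters TATAAA were found at 0 of 6, beside 7.37%, 10.5% and 11.6% of promoters. The counts are by gene, over 9 tabled promoters of the 6 genes, and the shares are of single promoters. Among promoters with a WT peak at MS the shares were 7.88% for E2F, 22.9% for the STRA8 core, 40.1% for MYB and 7.13% for NRF1. They were 62.9% for SP/KLF, 39.6% for NFY, 11.9% for TGACGT, 12.3% for GTTGCC and 4.73% for TATAAA. A match shows only that the letters are there.

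Genes whose covered length varied most like that of a member over the 24 lists were of mixed kinds. By Pearson correlation of log2(bp + 1), given as a description because the lists share lengths and stages, the nearest were Gss for Spo11 (r = 0.995), Prpf38a for Hormad1 (0.995), Atg3 for Prdm9 (0.995), 4833439L19Rik for Dmc1 (0.992) and Lrrc14 for Meiob (0.994). For Msh4, Msh5 and Mlh3 they were Hectd2 (0.997), Prkab2 (0.948) and Rbp4 (0.936). The next 2 in order were Dag1 and Eif3k for Spo11, Zfp87 and Snrpc for Hormad1, Tmem106b and Tmed5 for Prdm9, Ormdl3 and Coil for Dmc1, and Atp6v0e and Tcf12 for Meiob. For Msh4, Msh5 and Mlh3 they were Alkbh1 and Sh3yl1, Tmub2 and Ergic3, and Cdc42ep4 and Chrna10. Among themselves the 8 genes gave 28 pairs with r from 0.38 to 0.99 and a median of 0.72.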

How the data were processed

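ATAC-seq libraries of 12 groups (34 libraries) were used as 24 deposited interval lists, 1 per group and fragment class. The submitters' processing notes name STAR 2.5.2a, MACS2 2.1.0.20140616 and build GRCm38 (mm10). The rules for dividing fragments, making calls and combining replicates are not stated in the labels or files. The authors deposited start and end positions and a score per interval, and the meaning of the score is not stated. Scores of SV129 peaks are all 0. Depth is unknown, so longer lists may come from deeper libraries.

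Overlaps were counted with Python 3.11.15, pandas 2.3.3 and numpy 2.4.6 and tested on simulated data. Genes came from the GRCm38.p6 table, which gives no strand or exons, and starts from RefSeq promoters. Shares have no interval, because calls overlap and each list holds only calls above an unknown minimum. No test was made between conditions. Members and lists were chosen with earlier results of these data known. All 8 members are named. Other genes were named by end peaks missing in cKO, in all lists or in none, at most 10 per kind by WT bp, and like genes by the highest correlation. Mcm8 was chosen after its values were seen. Some listed genes that the rule names are not reported here.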

Additional observations from a re-analysis of the deposited data

Results flagged for a closer look

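For 10 counts the SV129 and WT lists moved one way between neighbouring stages and the cKO list the other. None of these differences was tested, each rests on 1 list per group, and the 2 intact lists joined strain and depth. The share of all protein-coding genes with such opposite moves was not counted, so no background stands beside the 10. Subnucleosome peaks at Hormad1 went from 1 to 2 between MS and RS in SV129 and in WT and from 2 to 1 in cKO, a change of -1. The promoter peak of Hormad1 was listed at both stages in every background, and the change came from the peak beyond its upper end. At Msh4 subnucleosome peaks went from 1 to 2 in SV129, from 1 to 3 in WT and from 1 to 0 in cKO, also -1. Over all 8 genes they went from 8 to 10, from 8 to 12 and from 9 to 2, a change of -7 in cKO.

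Nucleosome calls at Dmc1 went from 5 to 2 between MS and RS in SV129, from 11 to 3 in WT and from 0 to 1 in cKO, a change of 1. Between RS and ES those at Hormad1 went from 4 to 0, from 4 to 2 and from 0 to 6 (a change of 6), those at Prdm9 from 11 to 0, from 8 to 2 and from 1 to 9 (a change of 8) and those at Msh4 from 16 to 13, from 13 to 10 and from 7 to 12 (a change of 5). Mlh3 had the opposite order, from 3 to 7, from 2 to 10 and from 4 to 1 (a change of -3). Between ES and sperm Dmc1 went from 7 to 0 and from 5 to 0 in the intact lists. In cKO it went from 1 to 12 (a change of 11). Msh4 went from 13 to 0, from 10 to 0 and from 12 to 15 (a change of 3). Of all genes without a WT sperm call, 69.5% had one in cKO sperm.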

How the results depend on the processing

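No paired analysis was possible because each group has 1 list, with no values per library, and for the same reason no replicate could be left out. Counting intervals by their centre, by 50% of their length, or to 2 kb from an end left every count of genes with an interval within 1.5 times, and counts of calls were not run under these settings. With 500 bp, the Hormad1 peak of WT sperm fell outside the window and the count became 0 of 8. With only the better-scored 50% of peaks in a list, cKO had 6 genes with a peak at MS, 0 at RS and 0 in sperm. Without calls at the most common score, WT sperm had 0 genes with a nucleosome call, and the cKO to WT ratio of calls at RS was 0.146 in place of 0.449.

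Around the transcription start alone (6 genes), WT sperm had 0 genes with a peak, and nucleosome calls were at 3, 2 and 1 genes at ES in SV129, WT and cKO and at 1 in cKO sperm. The cKO to WT ratio of covered length was then 0.1 for peaks at RS, 0.347 for calls at RS and 2.42 for calls in sperm, and the SV129 to WT ratio for calls at ES was 1.86. Scaled to 10000 peaks of the list, the cKO to WT ratio of peaks was 2.51 at MS, 2.31 at RS and 2.68 in sperm, and the SV129 to WT ratio 1.61 at RS and 0.847 in sperm. As deposited, those ratios were 1.12, 0.167, 1, 0.833 and 3, so cKO had fewer peaks at these genes at RS as counted and more relative to its list. The same held over all genes at RS, where 3269 had a peak from 4075 cKO peaks and 14031 from 56480 WT peaks. Scaled to 100000 calls, the ratio was 1.17 for SV129 at MS and 1.04 for cKO in sperm. Counted as merged stretches, cKO to WT was 0.733 at RS and 20 in sperm, in place of 0.449 and 42.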
